A study of Homo sapiens with 6 samples.

Results

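The genes described here encode the oxidative phosphorylation machinery. They were taken from the deposited expression table as the rows whose KEGG pathways include hsa00190, leaving out symbols that start with ATP6V or TCIRG, the subunits of the vacuolar proton pump. Of 120 genes of that pathway, 97 remained, out of 20030 genes in the table. Grouped by symbol, 86 of them were nuclear genes for subunits, with 40 in complex I, 4 in complex II, 10 in complex III, 17 in complex IV and 15 in complex V. A further 4 genes act in the assembly of cytochrome c oxidase and 7 are other enzymes of the pathway. The table used here holds 0 genes with a mitochondrially encoded symbol, so the subunits encoded by mitochondrial DNA were not analysed here.

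The mRNA was sequenced in 786-O, an established human line of clear cell renal cell carcinoma, a tumour of the kidney tubule epithelium. Stable YB1 knockdown cells carried a lentiviral small hairpin RNA against YB1 (shYB1). Control cells carried a vector with a scrambled hairpin (vector), and both had been selected with puromycin and were labelled with passages 16 to 18. Each of the 2 groups had 3 libraries. The labels give 1 shYB1 group, while the design text of the deposit speaks of several hairpins against YB1. The knockdown replicates may therefore carry different hairpins. Every SD of the knockdown group, and every p-value, would then include differences between hairpins. The labels do not say whether these came from separate cultures, so p-values measure the spread between these libraries, which may be technical, and the sources used here do not say whether the cells were clones or pools. The values are FPKM, fragments per kilobase of transcript scaled to the mapped fragments of the library. A comparison of levels between genes depends on the transcript length used for each.

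Oxidative phosphorylation takes place at the inner mitochondrial membrane. Complex I (NADH dehydrogenase) and complex II (succinate dehydrogenase) pass electrons to ubiquinone, complex III passes them to cytochrome c, and complex IV (cytochrome c oxidase) passes them to oxygen. Complexes I, III and IV pump protons across the membrane, and complex V (ATP synthase) uses the gradient to make ATP. Clear cell renal carcinoma is known for its reliance on glycolysis. YB1, encoded by YBX1, binds RNA and DNA and was named for the Y box, a promoter element that holds the letters CCAAT on one strand.

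Total FPKM lay between 282736 and 295887 per library. The table holds no fragment counts, so depth is unknown, and the spacing of the lowest values gave only relative depths from 0.979 to 1.09 times that of shYB1 replicate 1. The knockdown itself was visible in YBX1, which fell from 366, 373 and 378 FPKM in vector cells to 167, 166 and 173 FPKM in shYB1 cells (log2 fold change −1.14, SE 0.0312, adjusted p = 1.53e-08). All 7 markers of kidney epithelium and this carcinoma were detected, from CA9 at 7.45 to VIM at 1420 FPKM, with PAX8 near 77 FPKM in every library. All 12 markers of blood, endothelial, fibroblast, muscle and germ cells lay under a mean of 1 FPKM. In RNA from a whole culture, fewer cells of a kind and less RNA per cell cannot be told apart.

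Each gene was tested with limma on log2(FPKM + 0.1), and a gene was called at a Benjamini-Hochberg adjusted p under 0.05 over 10439 genes, those that averaged 1 FPKM or more. In the YB1 knockdown cells, 21 of the 79 nuclear subunit genes tested were higher and 1, NDUFB6, was lower. The 21 make up 26.6% of those tested, against 18.7% called higher among all genes, and the lower gene makes up 1.27%, against 6.93% called lower among all genes. The changes were small: log2 fold changes ran from −0.22 to 0.32, and their median of 0.066 lay beside a median of 0.055 over all genes tested. The largest rises were those of NDUFS8, UQCRC1, ATP5F1B and CYC1, at 1.25, 1.24, 1.24 and 1.22 times the vector level.

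The subunit genes are abundant transcripts, with a median of 43.2 FPKM against 7.3 FPKM for all genes tested. Among genes of at least 5 FPKM, 26.0% were called higher and 9.53% lower. The 77 subunit genes at that level had 27.3% higher, a share close to that background, and 1.3% lower. The groups of libraries did not overlap for 23 of the 79 genes: each knockdown library exceeded each control library for 22 (background 30.1%) and fell short of it for 1 (background 12.5%). No member reached the screening criteria of a 2 fold change with an unadjusted p under 0.05, which 0.22% of all genes tested met. By limma at the adjusted threshold, 22 of the 86 members tested were higher (25.6%, background 18.7%) and 2 lower (2.33%, background 6.93%).

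The calls depend on how the libraries are scaled. Dividing each library by a median-of-ratios size factor lowered the median change over all genes by 0.054 on the log2 scale, from 0.055 to 0.001, and left 12 subunit genes higher (15.2%, background 11.4%) and 1 lower (1.27%, background 12.0%). All 12 were among the 21. The 9 whose calls were lost were NDUFA10, NDUFB5, NDUFB10, UQCRH, UQCRQ, COX5A, COX6A1, ATP5MC1 and ATP5MF. Without vector replicate 1 the count of higher genes was 13 (16.5%, background 12.7%). Without shYB1 replicate 2 it was also 13 (16.5%, background 12.8%). In the other direction NDUFB6 kept its call under median-of-ratios scaling, with a log2 fold change of −0.28.

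**Figure D1:**
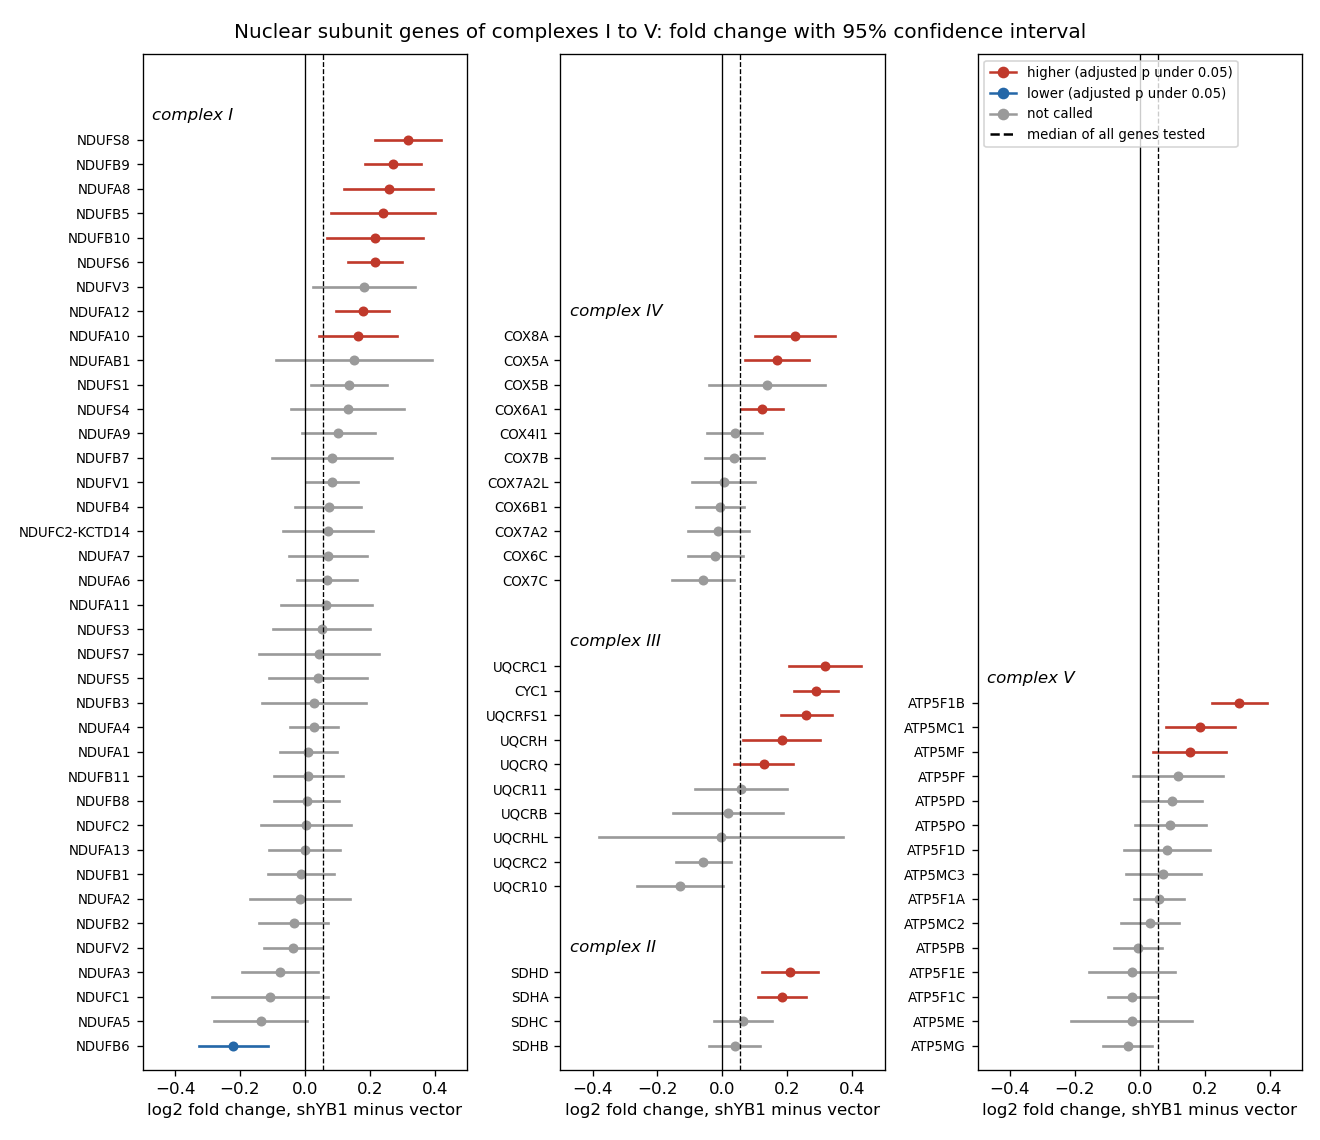
Log2 fold change (shYB1 minus vector, x axis) of the nuclear subunit genes tested, 1 gene left out, in panels by complex, with the 95% confidence interval from limma as a bar and the median of all genes tested (0.055) as a dashed line. The points run from −0.221 to 0.318, 21 genes are called higher, and NDUFB6 is the 1 gene called lower.

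Complex I takes electrons from NADH in its matrix arm and pumps protons in its membrane arm. Of its 39 genes tested, 8 were higher (20.5%, background 18.7%, or 26.0% for genes of at least 5 FPKM) and 1 was lower, with a median log2 fold change of 0.07. Median-of-ratios scaling left 5 higher and 1 lower (12.8% higher, background 11.4%). The 7 nuclear core subunits, which carry the flavin and the iron-sulfur clusters, had 1 call. This was NDUFS8, an iron-sulfur subunit near the site where ubiquinone is reduced. NDUFS8 (chromosome 11, 68030617 to 68036644, plus strand, GRCh38, 7 exons) stood at 67.1, 65.3 and 73.1 FPKM in vector cells and at 85.2, 82.4 and 88.5 FPKM in shYB1 cells. The groups were apart, with a log2 fold change of 0.32 (95% confidence interval 0.22 to 0.42, adjusted p = 9.34e-04), and the call held under all 15 alternatives.

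The other core subunits described here were not called. NDUFS1, which holds iron-sulfur clusters of the NADH end, had a log2 fold change of 0.14 (adjusted p = 0.0863) and NDUFV1, the flavin subunit, 0.08 (adjusted p = 0.12). For both, unadjusted p-values were under 0.05, at 0.0282 and 0.0457, and neither passed the adjustment over all genes tested. NDUFS3 and NDUFS7, neighbours of NDUFS8 in the complex, had log2 fold changes of 0.05 and 0.04, and NDUFV2 one of −0.04. NDUFV2 shares 82.0% of its 50-base words with other annotated transcripts, so its value is uncertain. Whether NDUFS8 changed more than the other core subunits was not tested.

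Among the accessory subunits, which surround the core and are needed for its assembly and stability, NDUFB9 of the membrane arm was both the most abundant complex I transcript, at a mean of 267 FPKM, and one of the clearest changes. NDUFB9 read 246, 229 and 252 FPKM in vector cells and 291, 290 and 296 FPKM in shYB1 cells, a log2 fold change of 0.27 (adjusted p = 8.59e-04). The gene (chromosome 8, 124539101 to 124580648, plus strand) overlaps MTSS1 and TATDN1 on the other strand, and the strand used in counting is not given in the sources used here. NDUFA8 was at 23.0, 19.8 and 23.7 FPKM in vector libraries and at 26.8, 26.3 and 26.4 FPKM in shYB1 libraries, with a log2 fold change of 0.26 (adjusted p = 0.0128). In both genes the knockdown libraries lay closer together than the control libraries and above all of them.

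Another pair of accessory subunits with calls under every alternative sit on the matrix arm. NDUFS6, a zinc-binding subunit, went from 147, 146 and 155 FPKM to 170, 171 and 181 FPKM (log2 fold change 0.22, adjusted p = 0.00245). NDUFA12, which takes the place of an assembly factor late in assembly, went from 47.2, 46.9 and 44.0 FPKM to 51.6, 51.8 and 52.9 FPKM (log2 fold change 0.18, adjusted p = 0.00699). The calls of NDUFB5 (0.24, adjusted p = 0.0355), NDUFB10 (0.22, adjusted p = 0.0382) and NDUFA10 (0.16, adjusted p = 0.0499), given as log2 fold changes, were less stable and held under 6, 8 and 4 of the 15 alternatives. For NDUFB10 the groups overlapped, since vector replicate 3 at 69.1 FPKM was above shYB1 replicate 1 at 67.9 FPKM.

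NDUFB6, a membrane arm subunit like NDUFB9, moved the other way. It stood at 46.2, 44.3 and 49.1 FPKM in vector libraries and at 38.3, 39.3 and 42.1 FPKM in shYB1 libraries. The shYB1 libraries were all below the vector libraries, a log2 fold change of −0.22 (95% confidence interval −0.33 to −0.11, adjusted p = 0.00823), which is 0.858 times the vector level. The call held under all 15 alternatives, with adjusted p from 0.00138 to 0.0362. NDUFB6 (chromosome 9, 32552999 to 32573184, minus strand, 3 exons) overlaps SMIM27 on the other strand. By symbol family, 3 of 14 NDUFA genes, 3 of 11 NDUFB genes and 2 of 8 NDUFS genes tested were higher, shares of 21.4%, 27.3% and 25.0% near the backgrounds of 18.7% and 26.0%. None of the NDUFC and NDUFV genes was called, although NDUFV3 had an unadjusted p of 0.0262 (adjusted p = 0.0817).

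**Figure D2:**
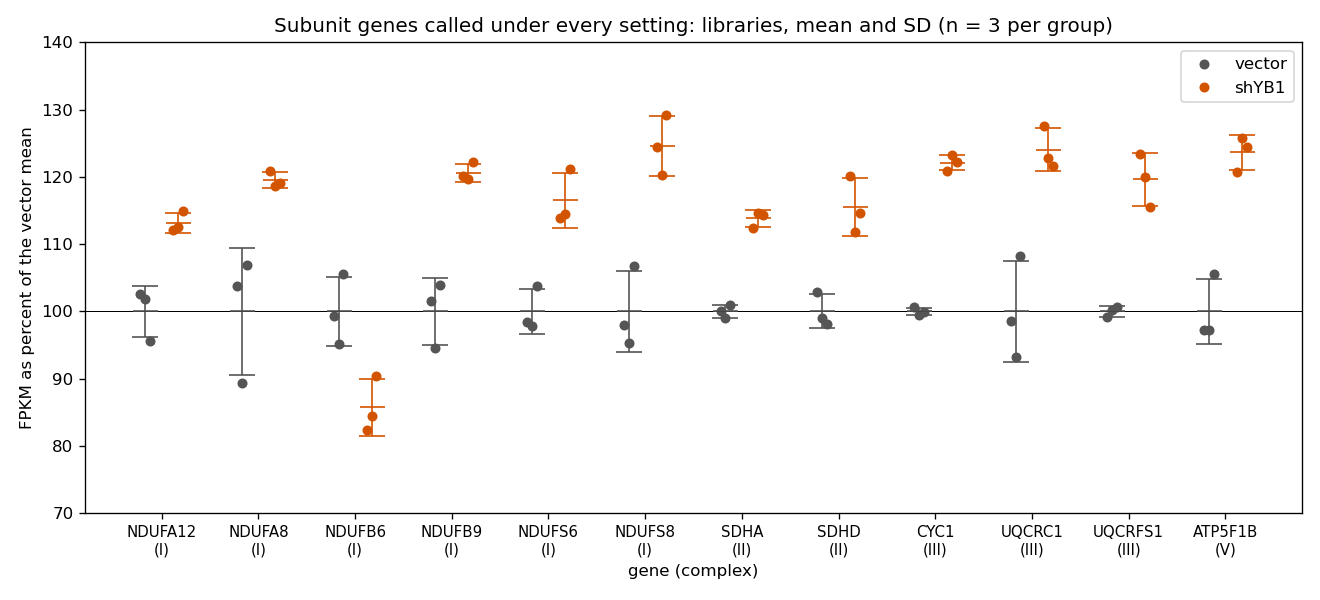
FPKM in each library as percent of the gene's vector mean (y axis, from 70) for the 12 subunit genes called in the same direction under every setting, with vector in grey, shYB1 in orange and bars for the mean and SD of 3 libraries. The orange points lie above all grey points for 11 genes and below them for NDUFB6.

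Complex II oxidises succinate, and all 4 of its subunits are nuclear. SDHA and SDHD were higher, and SDHB and SDHC were not called, for a median log2 fold change of 0.12 (background 18.7% higher). With 4 genes no share can be read from this. SDHA, the flavoprotein that binds succinate, read 30.6, 30.3 and 30.9 FPKM in vector cells and 34.4, 35.1 and 35.0 FPKM in shYB1 cells (log2 fold change 0.18, adjusted p = 0.00336). SDHD, a membrane anchor, read 36.9, 35.5 and 35.2 FPKM in vector cells and 43.1, 40.1 and 41.1 FPKM in shYB1 cells (log2 fold change 0.21, adjusted p = 0.00398). Both calls held under all 15 alternatives, and neither gene's groups overlapped. Some of their sequence is shared: 22.3% of the 50-base words of SDHA occur in other genes, chiefly the pseudogenes SDHAP3 and SDHAP1, and 43.0% of those of SDHD, chiefly in the readthrough transcript AP002884.3. SDHB, the iron-sulfur subunit, had a log2 fold change of 0.04 (95% confidence interval −0.04 to 0.12) and SDHC, the other anchor, 0.06 (95% confidence interval −0.03 to 0.15).

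Complex III had 5 of its 10 genes higher, where 18.7% of all genes and 26.0% of those of at least 5 FPKM were, and a median log2 fold change of 0.09. Under median-of-ratios scaling 3 of the 10 were higher (background 11.4%). CYC1 and UQCRFS1, the nuclear subunits that carry its heme of cytochrome c1 and its Rieske iron-sulfur cluster, were both among them. CYC1 (chromosome 8, 144095027 to 144097525, plus strand) had the smallest spread relative to its level of all members called, at 53.5, 52.9 and 53.1 FPKM in vector cells and 64.3, 65.5 and 65.0 FPKM in shYB1 cells, a log2 fold change of 0.29 (95% confidence interval 0.22 to 0.36, adjusted p = 1.41e-04). UQCRFS1 (chromosome 19, 29205321 to 29213541, minus strand) read 46.6, 47.1 and 47.3 FPKM in vector cells and 58.0, 56.4 and 54.3 FPKM in shYB1 cells, a log2 fold change of 0.26 (adjusted p = 6.87e-04). Of its words, 13.7% occur in the pseudogene UQCRFS1P1.

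UQCRC1, a core protein on the matrix side, was the most abundant complex III transcript and stood at 82.6, 78.2 and 90.7 FPKM in vector cells and at 107, 103 and 102 FPKM in shYB1 cells (log2 fold change 0.32, adjusted p = 0.00177). Its partner core protein UQCRC2 was not called, with a log2 fold change of −0.06. The small subunits UQCRH (0.18, adjusted p = 0.0304) and UQCRQ (0.13, adjusted p = 0.0453) were called with these log2 fold changes, but under 8 and 7 of the 15 alternatives. UQCRHL, a near copy of UQCRH, was at 5.76, 8.16 and 7.56 FPKM in vector cells and at 5.69, 8.31 and 7.44 FPKM in shYB1 cells, with no call, and 29.4% of the words of UQCRH occur in other transcripts. UQCR10, the lowest of the complex by log2 fold change at −0.13, had an unadjusted p of 0.052.

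Complex IV had 3 of 11 tested genes higher (27.3%, near the 26.0% of genes of at least 5 FPKM) and a median log2 fold change of 0.04. Under median-of-ratios scaling 1 of the 11, COX8A, was higher (9.09%, background 11.4%). COX8A, a small membrane subunit and the most abundant of the complex, was at 311, 301 and 346 FPKM in vector libraries and at 357, 368 and 394 FPKM in shYB1 libraries (log2 fold change 0.22, adjusted p = 0.0158). COX5A, which binds a thyroid hormone metabolite, was at 67.6, 74.1 and 74.6 FPKM against 78.1, 81.0 and 84.0 FPKM (0.17, adjusted p = 0.0202). COX6A1, the non-muscle form of its subunit, was at 249, 241 and 242 FPKM against 264, 266 and 266 FPKM (0.12, adjusted p = 0.0121). In all 3 genes the groups were apart, and the calls held under 13, 9 and 12 of the 15 alternatives. COX8A shares 27.7% of its words with AP000721.1, a gene that overlaps it on the same strand, and COX6A1 shares 44.0% with other transcripts.

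Several complex IV subunits come in forms used in different tissues, and the cells listed the muscle, lung and testis forms at or near 0. COX4I2, COX6A2, COX7A1 and COX7B2 were listed at 0 in all 6 libraries, and COX6B2 and COX8C lay between 0 and 0.217 FPKM. The forms present in most tissues were expressed and, apart from COX6A1 and COX8A, not called. COX4I1, COX6B1, COX7A2 and COX7B had log2 fold changes from −0.01 to 0.04. COX7A2L, placed in complex IV by its symbol alone, was not called either (0.004). NDUFA4, a subunit first assigned to complex I and later found in complex IV, was not called, at 45.9, 46.2 and 46.8 FPKM in vector cells and 48.0, 45.9 and 47.6 FPKM in shYB1 cells. Its paralog NDUFA4L2, a hypoxia target known to be high in this tumour type, lay at only 0.202 to 0.5 FPKM in vector cells and 0.171 to 0.293 FPKM in shYB1 cells and was not tested.

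Complex V had 3 of 15 genes higher and a median log2 fold change of 0.07. That share was close to the 18.7% of all genes but below the 26.0% of genes of at least 5 FPKM. All 15 genes reached that level. Under median-of-ratios scaling 1 of the 15, ATP5F1B, was higher (6.67%, background 11.4%). ATP5F1B, the catalytic beta subunit of the head, was at 211, 211 and 229 FPKM in vector libraries and at 262, 273 and 270 FPKM in shYB1 libraries, a log2 fold change of 0.31 (95% confidence interval 0.22 to 0.39, adjusted p = 3.82e-04). The gene (chromosome 12, 56638175 to 56646068, minus strand, 10 exons) shares none of its words with other transcripts, and its call held under all 15 alternatives. ATP5F1A, the alpha subunit that alternates with beta in the head, was not called, at 88.5, 85.9 and 89.2 FPKM in vector libraries and 88.3, 93.0 and 93.7 FPKM in shYB1 libraries (log2 fold change 0.06). ATP5MF of the membrane part had a log2 fold change of 0.15 (adjusted p = 0.0484). Its groups overlapped, and the call held under 7 of the 15 alternatives. ATP5MF shares 37.0% of its words with other transcripts, chiefly ATP5MF-PTCD1, which overlaps it on the same strand. ATP5F1E, the epsilon subunit of the stalk, was the most abundant subunit transcript of all at a mean of 588 FPKM and was not called (−0.02).

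The ring of subunit c is encoded by 3 genes whose mature proteins are identical. ATP5MC1 was higher, at 41.3, 44.6 and 44.0 FPKM in vector cells and 50.7, 46.2 and 51.1 FPKM in shYB1 cells (log2 fold change 0.19, adjusted p = 0.017), with a call under 10 of the 15 alternatives. ATP5MC2 and ATP5MC3 were not called (0.03 and 0.07). The size of each gene's share depends on the transcript length used for FPKM. Annotated transcripts have 614 (ATP5MC1), 1792 (ATP5MC2) and 5484 (ATP5MC3) nucleotides. As a share of the summed FPKM of the 3 genes, ATP5MC1 made up 55.3% ± 0.784 (SD, n = 3) in vector cells and 57.8% ± 0.897 (SD, n = 3) in shYB1 cells, and ATP5MC2 went from 31.7% to 29.7%. The groups did not overlap for either share, and a two-sided exact permutation test gave p = 0.1 for each, the smallest that 3 against 3 libraries allow (0.15 after adjustment over the 3 shares, and 0.4 for ATP5MC3).

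**Figure D3:**
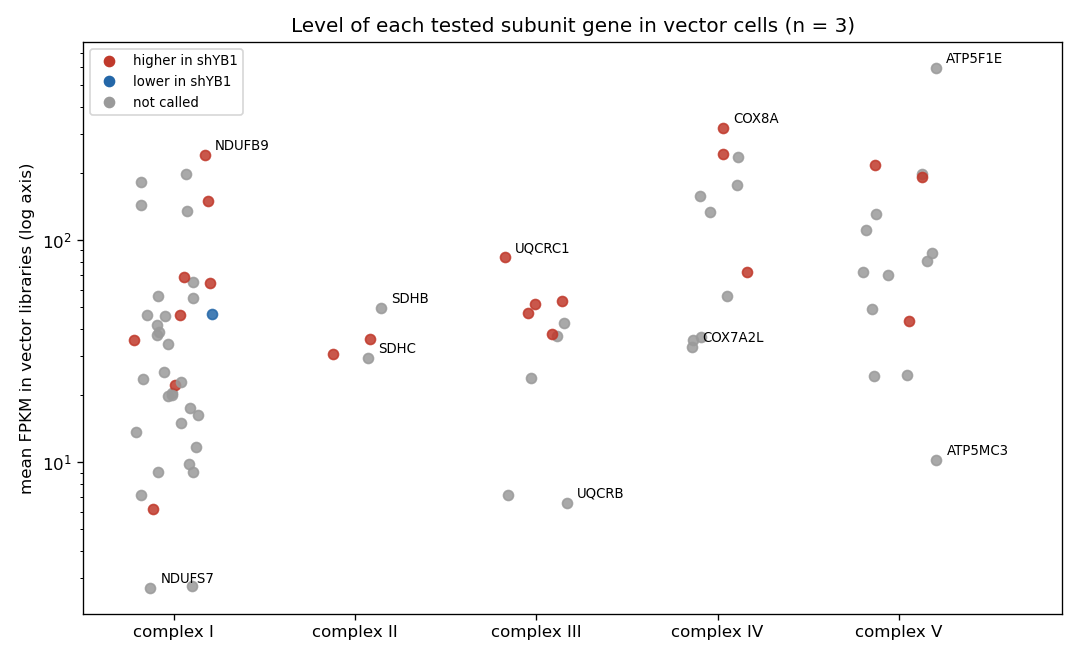
Mean FPKM in the 3 vector libraries (y axis, log scale) of each of the 79 tested subunit genes by complex (x axis), coloured by call. Levels within a complex differ widely, and genes called higher are found at low and high levels, from NDUFA10 at 6.15 to COX8A at 319 FPKM.

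Subunits of one complex are needed in fixed proportions, yet their transcripts were not at one FPKM level. FPKM depends on the transcript length used, and some genes low in their complex have long annotated transcripts. These are UQCRB at 5575, ATP5MC3 at 5484 and SDHC at 13566 nucleotides, against a median of 932 for subunit genes tested. NDUFS7, also low, has 1039, and ATP5F1E, the highest of complex V, has 3665. How far length shaped these levels was not tested. Mean levels ran from NDUFS7 at 2.77 to NDUFB9 at 267 FPKM in complex I. Those of complex III ran from UQCRB at 6.63 to UQCRC1 at 94.0 FPKM. In complex IV they ran from COX7A2L, placed there by its symbol, at 33.0 to COX8A at 346 FPKM. In complex V they ran from ATP5MC3 at 10.4 to ATP5F1E at 588 FPKM. Complex II was the most even, from SDHC at 30.2 to SDHB at 50.1 FPKM. Summed over its genes, complex II went from 145.5 ± 0.759 FPKM in vector to 158.0 ± 1.65 FPKM in shYB1 cells (SD, n = 3), 1.09 times. Complex III went from 390.9 ± 14.0 to 440.5 ± 2.46 FPKM (SD, n = 3), 1.13 times. In these sums the libraries of both groups were apart, and the sums were described without a test. The sums of complexes I, IV and V were 1.06, 1.06 and 1.05 times as high, and only that of complex I was apart. Differences between complexes were not tested. All subunit genes together went from 5956.4 ± 263 to 6326.8 ± 81.0 FPKM (SD, n = 3), and vector replicate 3 at 6254.1 FPKM lay above shYB1 replicate 1 at 6238.6 FPKM.

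Subunit transcripts are short, with a median of 932 nucleotides against 3044 for all genes tested. In FPKM a value is divided by transcript length, so the shares were also read within classes of length. Under 1000 nucleotides, 27.3% of 44 subunit genes and 19.8% of 653 genes overall were higher. From 1000 to 2000 nucleotides the shares were 35.0% of 20 and 20.8% of 2187 genes, and above that 13.3% of 15 and 18.1% of 7558 genes. Sequence shared with other genes exceeded 50% of the words in 5 subunit genes (NDUFV2, NDUFC2-KCTD14, NDUFA7, ATP5PO and NDUFB8), of which none was called, and leaving them out kept the counts at 21 higher and 1 lower. NDUFC2-KCTD14 is a readthrough transcript that shares reads with NDUFC2.

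The other members of the pathway gave few calls. PPA1, the cytosolic pyrophosphatase, was at 53.0, 54.3 and 56.2 FPKM in vector cells and at 58.1, 61.5 and 58.9 FPKM in shYB1 cells (log2 fold change 0.13, adjusted p = 0.0298). PPA2, the mitochondrial pyrophosphatase, was at 21.8, 20.9 and 23.2 FPKM in vector cells and at 18.4, 20.7 and 19.5 FPKM in shYB1 cells (−0.17, adjusted p = 0.0464). The enzymes thus had opposite signs, each with its groups apart, and calls under 7 and 9 of the 15 alternatives. None of the 4 oxidase assembly genes passed the adjusted threshold. COX10 and COX15, which make heme A, had log2 fold changes of 0.10 and 0.10, and the copper chaperones COX11 and COX17 had 0.17 and 0.06. Unadjusted p was under 0.05 for COX11 (0.0386, adjusted p = 0.108) and COX15 (0.0287, adjusted p = 0.0872). The gastric and colonic proton pump genes ATP4A, ATP4B and ATP12A were listed at 0 in every library, LHPP lay between 0.334 and 0.524 FPKM, and ATP6AP1, an accessory protein of the vacuolar pump, had a log2 fold change of −0.01.

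Genes that work with the complexes were read from lists made by hand. Of 43 tested assembly factors, 13 were higher (30.2%, background 18.7%) and 1 lower (2.33%, background 6.93%), with a median log2 fold change of 0.09. NDUFAF2, the complex I factor whose place NDUFA12 takes, was at 10.9, 13.0 and 11.2 FPKM in vector cells and at 15.9, 18.9 and 14.6 FPKM in shYB1 cells (0.48, adjusted p = 0.00751), a larger change than in any subunit gene. NDUFAF4 (0.43, adjusted p = 0.00387), COA7 (0.43, adjusted p = 0.00247) and PET117 (0.37, adjusted p = 0.00765) were also higher, and COA3, a factor for the oxidase, was lower (−0.21, adjusted p = 0.0278), a call that held under 9 of its 15 alternatives. Median-of-ratios scaling left 8 higher (18.6%, background 11.4%) and 1 lower.

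Ubiquinone and cytochrome c carry electrons between the complexes. Of 16 tested genes for these carriers and the enzymes that feed them, 2 were higher (12.5%, background 18.7%) and 1 lower (6.25%, background 6.93%). Median-of-ratios scaling left 2 higher and 1 lower, beside backgrounds of 11.4% and 12.0%. CYCS, cytochrome c itself, was at 14.1, 14.2 and 14.2 FPKM in vector cells and at 15.4, 16.8 and 16.6 FPKM in shYB1 cells (0.20, adjusted p = 0.0105). ETFA, an electron carrier from fatty acid oxidation, was higher (0.20, adjusted p = 0.0104), and COQ8B, a factor in ubiquinone synthesis, was lower (−0.26, adjusted p = 0.0235), a call that held under 8 of its 15 alternatives.

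The mitochondrially encoded subunits could not be read, but 21 nuclear genes for transcription and upkeep of mitochondrial DNA were tested, and 3 were called, all higher (14.3%, background 18.7%). TWNK, the DNA helicase, was at 8.71, 8.06 and 9.45 FPKM in vector cells and at 10.9, 11.4 and 11.2 FPKM in shYB1 cells (0.35, adjusted p = 0.00255). SSBP1, which binds the single strand (0.29, adjusted p = 0.00174), and SLIRP, which stabilises mitochondrial mRNA (0.28, adjusted p = 0.00862), were the others. Median-of-ratios scaling left the calls of these 3 in place, with a background of 11.4% beside their 14.3%. Of 10 tested regulators of mitochondrial biogenesis, 2 were called, both higher, a share near the background of 18.7%. PPRC1, a coactivator of that programme, was at 7.44, 7.79 and 7.6 FPKM in vector cells and at 9.55, 9.67 and 9.94 FPKM in shYB1 cells (0.35, adjusted p = 7.1e-04), and NRIP1, a corepressor of oxidative genes, was also higher (0.25, adjusted p = 0.00205). PPARGC1A, the best known of these coactivators, lay under the filter, at 0.669 to 0.739 FPKM in vector cells and 0.52 to 0.575 FPKM in shYB1 cells.

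Of 8 tested genes in a list of inner membrane carriers and related proteins, 1 was higher (12.5%, background 18.7%). This was the ADP/ATP carrier SLC25A5 (0.12, adjusted p = 0.0334). Under median-of-ratios scaling that call was lost and SLC25A3, the phosphate carrier, was called lower (−0.10, adjusted p = 0.0295). That made 12.5% lower (background 12.0%). SLC25A6, another ADP/ATP carrier, read 42.5 FPKM in shYB1 replicate 3 and 1.3 to 2.74 FPKM in the other libraries, so its fold change rests on 1 library. Of 17 tested subunits of the vacuolar proton pump, which belong to the same KEGG pathway but acidify lysosomes, 3 were higher (17.6%, background 18.7%) and 1 lower (5.88%, background 6.93%), with a median log2 fold change of −0.01. Under median-of-ratios scaling 2 were higher (11.8%, background 11.4%) and 3 lower (17.6%, background 12.0%). ATP6V0A2 (0.47, adjusted p = 0.0122), ATP6V0E2 (0.35, adjusted p = 0.0265) and ATP6V0D1 (0.14, adjusted p = 0.0365) were higher, and ATP6V1D was lower (−0.22, adjusted p = 0.00729). The calls of ATP6V0E2 and ATP6V0D1 held under 8 and 6 of the 15 alternatives, and that of ATP6V0D1 was lost under median-of-ratios scaling (adjusted p = 0.158). The difference between this pump and the respiratory complexes was not tested.

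Promoters of the subunit genes were read because YB1 is named for a promoter element and because the respiratory genes are known to share sites for a few factors. The window runs from 250 bases before to 30 bases after each start in RefSeq (GRCh38.p14), and 64 of the 79 tested subunit genes had one. For each complex the called gene of largest change is shown among those whose promoter could be printed, with NDUFB6 as the gene called lower. Capitals mark the letters CCAAT (the core of the Y box), GCGCA and GCGC with any base between them (NRF1), CCGGAAG (ETS factors) and AAGATGG (YY1), each searched on both strands, so ATTGG and CTTCCGG are matches too. The windows are chr11:68030431-68030710 (plus) for NDUFS8, chr9:32573130-32573409 (minus) for NDUFB6, chr11:112086623-112086902 (plus) for SDHD, chr3:48609617-48609896 (minus) for UQCRC1, chr11:63974370-63974649 (plus) for COX8A and chr17:48892537-48892816 (plus) for ATP5MC1.
NDUFS8: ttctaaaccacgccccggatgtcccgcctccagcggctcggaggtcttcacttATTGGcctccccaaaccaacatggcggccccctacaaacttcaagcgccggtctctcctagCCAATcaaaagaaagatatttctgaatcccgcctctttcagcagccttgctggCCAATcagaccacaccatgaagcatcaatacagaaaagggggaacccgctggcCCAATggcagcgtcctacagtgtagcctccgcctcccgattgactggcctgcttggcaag
NDUFB6: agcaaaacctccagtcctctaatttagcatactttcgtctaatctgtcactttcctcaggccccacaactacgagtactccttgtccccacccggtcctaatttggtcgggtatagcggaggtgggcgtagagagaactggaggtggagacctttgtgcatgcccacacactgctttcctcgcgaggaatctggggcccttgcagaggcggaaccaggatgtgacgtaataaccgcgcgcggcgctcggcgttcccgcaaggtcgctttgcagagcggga
SDHD: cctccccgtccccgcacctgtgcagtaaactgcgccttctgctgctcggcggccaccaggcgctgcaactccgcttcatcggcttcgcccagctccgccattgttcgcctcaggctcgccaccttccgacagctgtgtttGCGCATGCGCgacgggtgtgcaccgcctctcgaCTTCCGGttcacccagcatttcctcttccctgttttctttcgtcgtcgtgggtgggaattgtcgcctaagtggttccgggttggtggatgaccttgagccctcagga
UQCRC1: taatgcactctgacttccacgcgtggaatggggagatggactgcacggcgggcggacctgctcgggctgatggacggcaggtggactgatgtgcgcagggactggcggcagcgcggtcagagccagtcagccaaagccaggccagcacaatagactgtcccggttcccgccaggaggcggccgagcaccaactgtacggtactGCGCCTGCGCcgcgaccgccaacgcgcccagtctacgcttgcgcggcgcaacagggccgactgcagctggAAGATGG
COX8A: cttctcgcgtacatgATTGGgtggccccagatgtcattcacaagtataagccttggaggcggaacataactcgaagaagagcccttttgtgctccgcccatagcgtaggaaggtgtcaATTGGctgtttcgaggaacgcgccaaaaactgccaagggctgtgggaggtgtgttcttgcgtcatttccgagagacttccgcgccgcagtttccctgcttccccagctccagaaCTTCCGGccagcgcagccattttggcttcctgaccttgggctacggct
ATP5MC1: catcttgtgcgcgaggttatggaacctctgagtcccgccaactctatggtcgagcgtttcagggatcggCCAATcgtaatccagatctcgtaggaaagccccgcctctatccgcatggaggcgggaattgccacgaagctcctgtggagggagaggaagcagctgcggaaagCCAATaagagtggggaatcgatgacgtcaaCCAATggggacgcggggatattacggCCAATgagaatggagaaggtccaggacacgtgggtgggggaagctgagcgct

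The printed promoters differ in what they hold. NDUFS8 and ATP5MC1 each have 4 matches to CCAAT and COX8A has 2, while SDHD, UQCRC1 and NDUFB6 have 0. SDHD and UQCRC1 each have 1 NRF1 match, SDHD and COX8A each have 1 ETS match, and that of YY1 in UQCRC1 lies at the very end of the window. The window of NDUFB6 holds none of the searched letters. A match is a description of these letters and not a site bound by a factor.

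Over all 27305 promoters of the RefSeq table, 34.7% held CCAAT, 6.2% the NRF1 letters, 10.3% the ETS letters and 5.35% the YY1 letters. Over the 8382 promoters of genes tested here the shares were 36.6%, 12.7%, 20.7% and 6.92%. The 64 subunit promoters held them in 29.7%, 23.4%, 29.7% and 20.3%, so that CCAAT was in a smaller share of subunit promoters than of the genes tested and the other 3 in larger shares. Among the 16 subunit genes called higher that had a promoter, 37.5% held CCAAT, 37.5% the NRF1 letters, 31.2% the ETS letters and 12.5% the YY1 letters. In the 47 uncalled subunit genes these shares were 27.7%, 19.1%, 29.8% and 23.4%. None of these differences was tested.

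**Figure D4:**
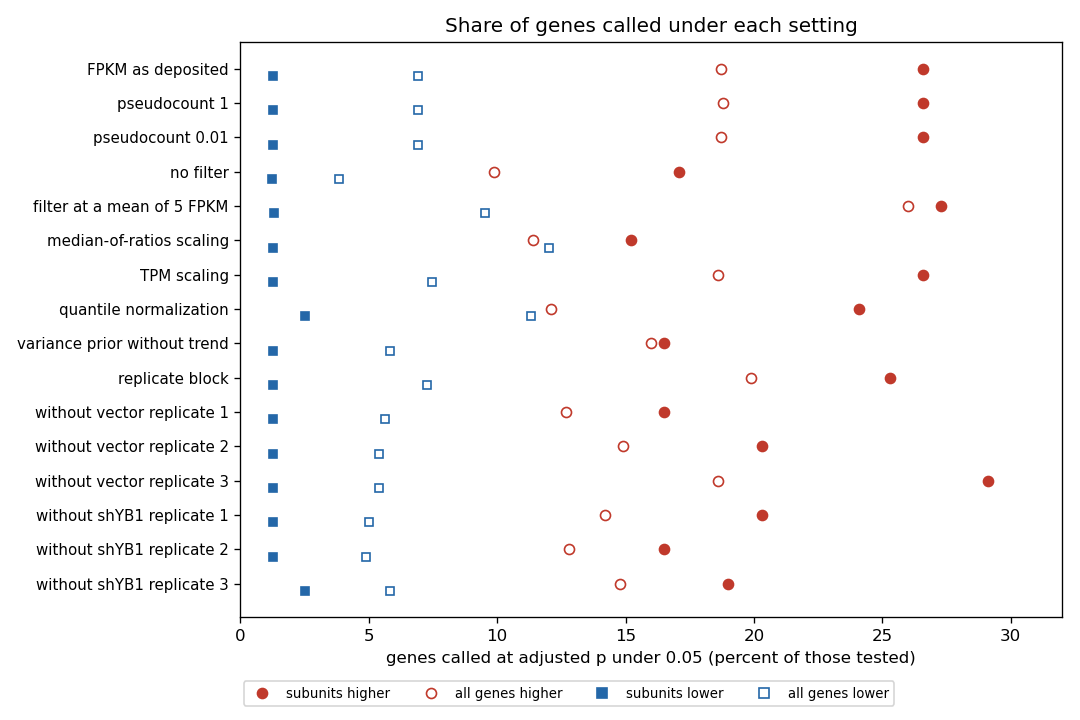
Percent of genes called at an adjusted p under 0.05 (x axis) among the subunit genes tested (filled) and all genes tested (open), higher in red circles and lower in blue squares, for the deposited FPKM and each of the 15 alternatives (y axis). The share of subunits called lower, at 1 or 2 genes, lies below that of all genes in every line, and the share called higher is nearest to that of all genes when the variance prior has no trend and when genes under 5 FPKM are left out.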

How the data were processed

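The mRNA of 786-O cells was sequenced in 3 vector and 3 shYB1 libraries. The authors deposited FPKM per gene, normalized to transcript length and mapped fragments of each library, for 20030 genes. The submitters’ processing notes name Trimmomatic, HISAT2, Cufflinks, HTSeq, DESeq and GRCh38, with neither versions nor roles, and the methods select genes by a fold threshold of 2, combined with P under 0.05. All 6 columns of values were used. Fragment counts are not held, so depth and counting intervals are not given.

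Deposited FPKM were put on the scale log2(FPKM + 0.1), which understates fold changes of low genes. The 10439 genes averaging 1 FPKM or more were compared by a two-sided limma 3.58.1 fit (R 4.3.3, lmFit and eBayes with trend and robust prior), and p-values were adjusted by Benjamini-Hochberg across these genes. The step was tested on simulated data. Shares of subunit c were compared by exact permutation in SciPy (version 1.17.1), and other steps used Python 3.11.15, NumPy 2.4.6, pandas 2.3.3 and matplotlib 3.10.9.

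Tried in turn were pseudocounts of 1 and 0.01, no filter, a filter at 5 FPKM, median-of-ratios, TPM and quantile scaling, a variance prior without trend, a replicate block and each library left out in turn. One more, without genes that share over 50% of their 50-base words with other transcripts, was chosen after seeing the data. Members and gene lists were chosen with earlier results of these data known. Named genes were the 3 largest called changes and the most abundant gene of each complex, the complex I core, complex II, the isoform families, the other enzymes, and up to 4 called genes of each list. Further called subunits were named after their values were seen, as were SLC25A3, SLC25A6, NDUFV3, UQCR10, UQCRC2, ATP5F1A and PPARGC1A. All 97 members were matched to GENCODE release 29 (GRCh38) for coordinates, length and shared words. Promoters came from RefSeq (GRCh38.p14), matched by symbol for 77 members. The values of 1 gene covered by the rule for named genes are not reported here.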

Additional observations from a re-analysis of the deposited data

How the results depend on the processing

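YBX1 stayed lower, and the count of members past a 2 fold change stayed at 0, under all 15 alternatives. The count of 21 subunit genes higher (26.6%, background 18.7%) fell to 12 under median-of-ratios scaling (15.2%, background 11.4%). It was 13 with a variance prior without trend (16.5%, background 16.0%). It ranged from 13 to 23 when 1 library was left out (16.5% to 29.1%, background 12.7% to 18.6%). The count was 13 without vector replicate 1 and 13 without shYB1 replicate 2. The count of 1 subunit gene lower (1.27%, background 6.93%) became 2 under quantile normalization (2.53%, background 11.3%). It ranged from 1 to 2 when 1 library was left out, with 2 without shYB1 replicate 3 (2.53%, background 5.81%). The median log2 fold change of the subunit genes, 0.066, became 0.011 under median-of-ratios scaling and 0.02 under quantile normalization. Without a filter 14 subunit genes were higher (17.1%, background 9.89%). No direction of a called gene reversed, and 12 subunit genes were called the same way under every setting.

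Libraries of the same replicate number did not deviate together, with correlations of −0.169, −0.059 and −0.00824 across genes. Pairs of different numbers ranged from −0.0507 to 0.113. The labels do not say whether equal numbers were prepared together, and these correlations cannot settle it. With the replicate block, 20 subunit genes were higher (25.3%, background 19.9%), 19 of them among the 21. In that fit 1 was lower (1.27%, background 7.28%). The depth of the libraries is unknown, so no counting error could be given.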
